A study of Rattus norvegicus with 36 samples.

Results

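The response of hypoxic H9C2 cells to the mature microRNA miR-125b was examined by setting 3 libraries of cells transfected with a miR-125b mimic against 3 libraries of cells transfected with a mimic control (MC). H9C2 cells are rat myoblasts of cardiac origin, a line that divides as a precursor and can switch on genes of striated muscle. Both groups received 25 nmol/L of mimic for 24 h and were then held for 24 h in hypoxia, given as below 0.2% oxygen. They differed in the sequence of the mimic and, as far as the labels tell, in nothing else. These 6 libraries were chosen by their group labels from the 36 of the series, which crosses MC, miR-125b and its isomiRs with normoxia and hypoxia in 12 groups of 3. Nothing in the labels ties a library to a culture of its own, so p-values measure the spread between libraries, which may be technical.

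A microRNA is a short RNA that is loaded into an Argonaute protein and pairs with messenger RNAs, mostly through its seed near the 5′ end and mostly in the 3′ untranslated region, which lowers the stability and the translation of the paired message. miR-125b is the mammalian relative of lin-4 of *Caenorhabditis elegans*. It is abundant in heart and other tissues and has been tied to apoptosis, differentiation and the p53 pathway. A mimic adds the mature strand to a cell that may already make it, so its comparison with a control mimic measures the effect of more of the same microRNA.

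The mature sequence is shown because target pairing of a microRNA rests mostly on its seed, bases 2 to 8, which is in capitals. In RefSeq (assembly GRCr8) the mature strand of rat miR-125b lies at chr11:29732588-29732609 on the plus strand, in *Mir125b2*, and 3 of the 693 mature rat microRNAs in the table carry this seed, the others being miR-125a and miR-351.
rno-miR-125b-5p: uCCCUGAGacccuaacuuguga
rno-miR-125a-5p: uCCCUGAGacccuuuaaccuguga
rno-miR-351-5p: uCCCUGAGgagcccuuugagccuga
The message bases that would pair with this seed are CTCAGGG, read 5′ to 3′ in DNA letters. Matches to it in the 3′ untranslated regions of the genes below were not analysed here. Libraries were made from poly-A RNA, which does not hold the mature microRNA, so the mimic itself was not measured.

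The deposited tables listed 21954 genes for the pair of groups. Total counts per library were 29137147 to 30249566 for MC and 29091237 to 30994348 for miR-125b, so the groups were sequenced to a like depth, and the mitochondrial genome gave 3.46% to 3.78% of the counts. Levels are given as CPM, counts scaled to the same library total after TMM normalisation, which sets libraries so that most genes agree between them. A level in CPM is not divided by gene length and is compared below between groups and not between genes. Libraries of the same group lay 0.376 to 0.395 apart and libraries of different groups 0.712 to 0.756 apart, measured over genes as the root of the mean squared log2 CPM difference. No library stood apart from its group.

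Most markers of the myoblast and of muscle were measured, 9 of the 10 listed, and *Myf5* was not analysed here. *Vim*, an intermediate filament protein of mesenchymal cells, was at 3690 ± 80.6 CPM (SD, n = 3) in MC, *Cdh15*, the cadherin of myoblasts and satellite cells, at 408 ± 11.95 CPM and *Myod1*, a myogenic transcription factor, at 62.5 ± 2.92 CPM. Cardiac markers were low or absent, with 5 of the 8 in the tables below 1 CPM in both groups. *Gata4*, a cardiac transcription factor, was at 9.07 ± 0.556 CPM in MC and *Nkx2-5* at 0.320 ± 0.161 CPM, and *Nppa*, the atrial natriuretic peptide, had a level of 0 in every MC library. Markers of leukocytes summed to 3.33 to 4.49 CPM in MC and 2.66 to 3.82 CPM with miR-125b, those of epithelia to 2.70 to 3.47 and 3.67 to 4.70 CPM, and those of endothelium to 30.6 to 35.2 and 32.7 to 38.2 CPM. The defining endothelial genes *Tie1* and *Vwf* and the leukocyte gene *Ptprc* stayed below 1 CPM in every library. Of the markers tested, 1 of 2 endothelial genes fell, *Tek*, an angiopoietin receptor (-1.04), and 1 of 4 leukocyte genes, *Csf1r* (-1.52), while neither of the 2 epithelial genes was called. *Tek* and *Csf1r* were chosen for mention after their values were seen.

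A gene was called when edgeR's quasi-likelihood test gave an adjusted p under 0.05 together with a change of 1.5-fold or more, with Benjamini-Hochberg adjustment over the 15143 genes left after low counts were filtered out. With miR-125b, 1886 genes were down-regulated (12.5% of those tested) and 1428 were up-regulated (9.43%), 21.9% in either direction. The median log2 fold change over all genes was 0.0027. In 65.3% of the genes tested the libraries of the groups did not overlap, and in 97.7% of those called they did not. Large falls were more numerous than large rises, since 191 called genes fell and 156 rose by more than 2 on the log2 scale. Among the 2330 genes of at least 100 CPM in either group, 202 were down-regulated and 170 up-regulated. In that set the largest rise, of *Lgmn* at 1.70, was smaller than the falls of *Myh3*, *Mylpf*, *Acta1*, *Tnnt2* and *Myog*, as the plot of all genes shows.

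**Figure D1:**
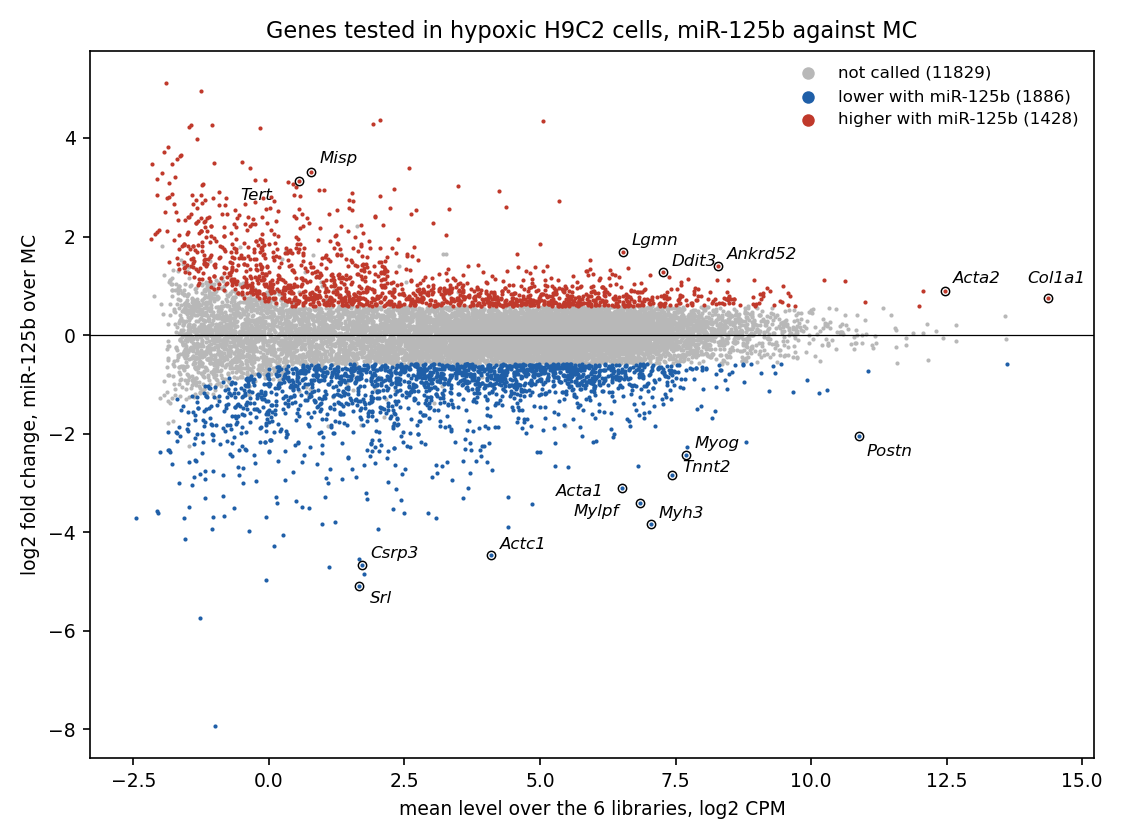
Each point is 1 of the 15143 genes tested, with its mean level over the 6 libraries (log2 CPM) on the horizontal axis and its log2 fold change, miR-125b over MC, on the vertical axis; blue points were called lower, red points higher, and circled genes are named in the text. Among abundant genes, *Myh3*, *Mylpf*, *Acta1*, *Tnnt2*, *Myog* and *Postn* lie 2 or more below 0, whereas *Lgmn* at 1.70 is the highest rise of a named gene above 100 CPM.

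The largest falls were mostly of genes of striated muscle, among named protein-coding genes without overlap and of at least 1 CPM in either group. *Srl*, which encodes sarcalumenin of the sarcoplasmic reticulum, fell by 5.09 on the log2 scale (SE 0.466, edgeR's quasi-likelihood adjusted p 3.52e-06), from 6.18 ± 0.767 to 0.175 ± 0.216 CPM. The log2 fold change was -4.97 for *Cst7*, a cystatin of immune cells, -4.71 for *Sln*, -4.66 for *Csrp3* and -4.47 for *Actc1*. It was -4.29 for *Ckmt2*, the sarcomeric mitochondrial creatine kinase, -4.05 for *Igfn1*, a Z-disc protein, and -3.98 for *Cacng6*, a calcium channel subunit. Of these 8 genes only *Actc1* was above 10 CPM in MC. At 100 CPM or more the deepest falls were those of *Myh3*, *Mylpf*, *Acta1*, *Tnnt2* and *Olfml2b*, an extracellular olfactomedin protein that went from 194 ± 3.91 to 30.7 ± 1.32 CPM.

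The contractile apparatus was the gene group with the most falls. The sarcomere is built of thin filaments of actin with troponin and tropomyosin, thick filaments of myosin, and Z-discs that anchor them. Of 69 genes listed for it, 60 were in the tables and 55 were tested, of which 39 were down-regulated (70.9%, against 12.5% of all genes) and 6 up-regulated, with a median log2 fold change of -1.74 against 0.0027 over all genes. The 39 were spread over every role: 10 of 14 thin filament genes, 11 of 15 thick filament genes, 12 of 18 genes of the Z-disc and its scaffold, and 6 of 8 muscle chaperones and metabolic genes.

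In the thin filament, *Tnnt2* (ENSRNOG00000033734), the troponin T of heart and embryonic muscle, stood at 292, 314 and 303 CPM in the MC libraries and at 42.3, 41.5 and 43.9 CPM with miR-125b. Every MC library was about 7 times above every miR-125b library, and the log2 fold change was -2.83 (SE 0.0389, adjusted p 4.69e-12). *Acta1*, skeletal α-actin, stood at 164, 159 and 169 CPM in MC and at 17.7, 19.6 and 19.96 CPM with miR-125b, a change of -3.10 (SE 0.0491, adjusted p 9.85e-12). *Actc1*, cardiac α-actin, went from 32.9, 31.3 and 34.4 CPM to 0.941, 1.60 and 1.87 CPM. None of the 3 genes overlapped between the groups, which was a condition in the choice of *Acta1*. Their smooth muscle relative *Acta2* moved the other way, from 3985 ± 126 to 7360 ± 176 CPM (log2 fold change 0.89, adjusted p 1.87e-09).

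In the thick filament, *Myh3*, the embryonic myosin heavy chain, stood at 241, 227 and 270 CPM in MC and at 16.0, 19.2 and 16.3 CPM with miR-125b (log2 fold change -3.84, SE 0.0802, adjusted p 9.49e-11). *Myh1*, an adult fast myosin, fell by 2.16 from 107 ± 7.89 to 23.9 ± 1.39 CPM, and *Mylpf*, the fast regulatory light chain, by 3.41 from 209 ± 6.22 to 19.6 ± 2.63 CPM. The annotated length of *Myh1* is 18143 bases, against 6035 for *Myh3*, so its counts may not be of 1 chain. *Myh6*, a cardiac chain, was called higher (1.04) from 0.377 ± 0.135 to 0.782 ± 0.125 CPM. The thick filament also held 4 of the 6 rises, 3 of them of genes near 1 CPM, of which *Mybpc3*, the cardiac myosin-binding protein C, went from 0.676 ± 0.047 to 1.58 ± 0.302 CPM (log2 fold change 1.22). Without miR-125b library 2, 3 of the 6 rises were called.

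At the Z-disc, *Csrp3*, the muscle LIM protein, went from 6.30 ± 0.265 to 0.248 ± 0.147 CPM, *Xirp1*, an actin-binding repeat protein, fell by 3.93 and *Actn2*, the α-actinin of the Z-disc, fell by 2.35. *Ankrd2*, a stretch-responsive ankyrin protein of muscle, rose from 1.17 ± 0.138 to 3.61 ± 0.558 CPM. *Des*, the intermediate filament protein of muscle, was low in both groups, at 1.77 ± 0.173 and 1.62 ± 0.238 CPM. Among the chaperones, *Smyd1*, a methyltransferase that assists myosin folding, fell by 2.46 (adjusted p 1.58e-05).

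The 6 libraries are bulk RNA, so fewer muscle-like cells and less muscle RNA per cell cannot be told apart. Markers of fibroblasts and smooth muscle summed to 17990 to 18430 CPM in MC and 29280 to 31130 CPM with miR-125b. Most of that sum was *Col1a1*, which was the 1 called gene of the 8 tested. Of the 8, 4 had an adjusted p below 0.05 with a positive change and 0 with a negative one. *Col1a2*, *Thy1* and *Lmod1*, those short of the fold threshold, had log2 fold changes of 0.54, 0.35 and 0.18, and *Pdgfra*, below 1 CPM in every library, had 0.29. *Myh11*, *Cnn1* and *Smtn* had -0.05, -0.02 and -0.03. The part of these markers in the fall of muscle genes was not tested.

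**Figure D2:**
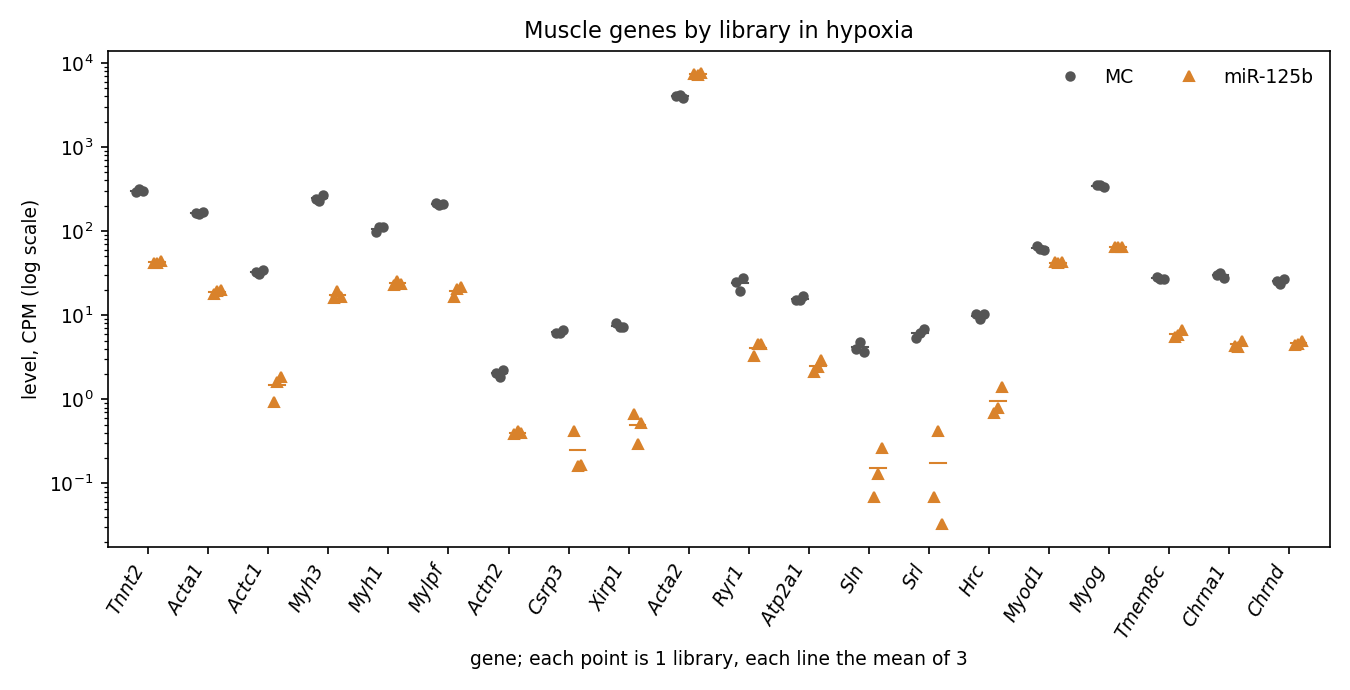
Levels of 20 muscle genes (CPM, log scale) in each library, with MC as dark circles, miR-125b as orange triangles and a line for the mean of 3. The groups do not overlap in any of the 20 genes, 18 of which were down-regulated. Lack of overlap was a condition in the choice of some of them, and it held for 65.3% of all genes tested. *Acta2* is the gene that is higher with miR-125b, and *Myod1*, from 62.5 to 42.3 CPM, is lower without reaching 1.5-fold.

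The sarcoplasmic reticulum stores calcium, releases it through the ryanodine receptor and takes it up through the SERCA pumps. Of 34 genes listed, 31 were tested, 14 were down-regulated and 1 was up-regulated, with a median log2 fold change of -0.43 that became -0.27 after removal of the trend on gene length. Release genes gave 6 of 14 falls, among them *Ryr1*, the skeletal ryanodine receptor, which went from 24.9, 19.3 and 28.02 CPM to 3.31, 4.500 and 4.49 CPM (log2 fold change -2.55, adjusted p 1.58e-07). Uptake genes gave 4 of 8 falls. *Atp2a1*, the fast-muscle SERCA pump, fell from 15.8 ± 0.816 to 2.49 ± 0.400 CPM and *Sln*, a small peptide that inhibits the pump, from 4.17 ± 0.566 to 0.154 ± 0.0984 CPM. The pump of non-muscle cells, *Atp2a3*, rose from 22.7 ± 1.56 to 45.9 ± 0.397 CPM. Storage genes gave 4 of 9 falls, with *Hrc*, a calcium-binding protein of the lumen, falling by 3.35 beside *Srl*.

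Muscle regulators fell less uniformly than the structural genes. Of 44 genes listed as myogenic and cardiac transcription factors, their inhibitors and fusion or receptor genes, 31 were tested, 13 were down-regulated and 0 up-regulated, with a median log2 fold change of -0.44. Of the 31, 4 had an adjusted p below 0.05 in the upward direction without reaching 1.5-fold. *Myog* (ENSRNOG00000030743), the factor that drives terminal differentiation, stood at 351, 356 and 336 CPM in MC and at 65.6, 64.6 and 64.0 CPM with miR-125b. Every miR-125b library was below every MC library, and the log2 fold change of *Myog* was -2.42 (SE 0.0339, adjusted p 4.69e-12). *Myod1*, which acts before *Myog* in the myogenic cascade, changed by -0.56 (SE 0.0463, adjusted p 1.55e-06), short of the fold threshold, and was called only without MC library 3 among the single-library omissions, at -0.59.

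Genes that mark fusing muscle cells were among the falls. *Tmem8c*, the myoblast fusion protein myomaker, went from 27.5 ± 0.858 to 5.99 ± 0.619 CPM, and *Chrna1* and *Chrnd*, subunits of the muscle acetylcholine receptor, fell by 2.74 and 2.45. None of the 4 cardiac factors tested was called, and their median was 0.50. *Gata4* had 0.54 (edgeR's quasi-likelihood adjusted p 3.95e-04) and *Gata6* went the other way at -0.33 (adjusted p 0.0484). *Hand2* had 0.93 (adjusted p 0.074), with uneven miR-125b libraries of 2.335 to 9.34 CPM. *Nkx2-5* had 0.46 and stayed below 1 CPM in every library. The inhibitor *Id1* stood at 17.1 ± 1.73 and 15.5 ± 0.438 CPM, with overlapping libraries, whereas *Id3* fell from 58.0 ± 2.63 to 33.0 ± 0.466 CPM.

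Promoters of the muscle genes are shown because *Myog*, MEF2 factors and serum response factor are known to act through short motifs near the start of such genes. RefSeq promoters of 300 bases (GRCr8, 250 before to 50 after the gene's start) were found for 30 of the 39 down-regulated sarcomere genes. The E-box CAGCTG, which reads the same on both strands, was in 10 of the 30 (33.3%), in 16 of the 43 promoters of all tested sarcomere genes (37.2%), in 16.1% of the 9384 promoters of all genes tested and in 15.1% of all 27457 promoters in the table. Among the promoters of all called genes with one in the table it was in 20.8% of 1086 down-regulated and 18.3% of 814 up-regulated genes. The MEF2 motif was in 4 of the 30 (13.3%, against 0.605% of all promoters) and the CArG box in 3 (10%, against 1.64%). Both were searched on both strands and each on its own. Of the 43 promoters of all tested sarcomere genes, 5 held the MEF2 motif (11.6%) and 3 the CArG box (6.98%). In the promoters of all genes tested the shares were 0.373% and 1.33%. Over all called genes the MEF2 motif was in 1.2% of the down-regulated and 0.491% of the up-regulated promoters, and the CArG box in 0.829% and 2.33%, so the CArG box was the less frequent among the down-regulated genes. The windows below give a motif in capitals with up to 10 bases on each side, on the strand of the gene. A match is a run of letters and no evidence that a factor was bound.
Tnnt2 E-box: tttatctgagCAGCTGgaggaccaca
Acta1 CArG box: tgcccaacacCCAAATATGGcttgggaagg
Klhl40 MEF2 motif: caggcatcctCTATATATAGcccagagaag
Ckm E-box: gctgaaagctCAGCTGccctcagggg
They lie at chr13:49818902-49818927 (plus strand) for *Tnnt2*, chr19:68784269-68784298 (minus strand) for *Acta1*, chr8:130318754-130318783 (plus strand) for *Klhl40*, which encodes a sarcomere-stabilising kelch protein, and chr1:88189376-88189401 (plus strand) for *Ckm*, the muscle creatine kinase. *Klhl40* and *Ckm* are printed for their motifs and were chosen after their values were seen.

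Genes that have been reported as targets of miR-125b fell more often than genes at large. The list holds 52 such genes from general knowledge and from the study, of which 42 were tested, 18 were down-regulated (42.9%), with a median log2 fold change of -0.47. Of the 12 tested genes tied to apoptosis 7 fell, and of the 30 others 11 fell. Since the study picked part of the list on cells of this kind, the count is not independent evidence of direction. The plot of reported targets gives the tested members that were not called higher.

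*Bak1*, a BCL2 family protein that opens the outer mitochondrial membrane, stood at 62.0, 61.8 and 59.6 CPM in MC and at 37.4, 37.3 and 37.9 CPM with miR-125b (log2 fold change -0.70, SE 0.0417, adjusted p 1.26e-07). *Bmf*, a BH3-only protein that blocks pro-survival relatives, fell further, from 35.0, 35.9 and 38.1 CPM to 12.8, 10.8 and 14.4 CPM (log2 fold change -1.52). *Tnfrsf1b*, the TNF receptor TNF-R2, was scarce and fell from 1.64 ± 0.225 to 0.535 ± 0.124 CPM. Groups did not overlap for these genes. *Tp53inp1* and *Tp53inp2*, stress-induced proteins of apoptosis and autophagy, fell by 0.94 and 1.02, and *Traf6*, an adaptor of receptor signalling, by 0.72.

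Outside apoptosis, *Erbb3*, a neuregulin receptor, fell from 9.14 ± 0.582 to 2.04 ± 0.414 CPM and *Lifr*, the receptor of leukaemia inhibitory factor, from 10.4 ± 1.34 to 3.13 ± 0.553 CPM. *Lin28a* had a count in at most 1 library of each group and was not tested. Several genes that the study names differed little in RNA here. The study reports *Bcl2l11* and *Hif1an* lower by RT-qPCR, and their proteins and that of *Dram2* lower as well. By RT-qPCR it also reports *Bak1*, *Bmf*, *Tnfrsf1b*, *Traf6*, *Tp53inp1* and *Tp53inp2* lower, all of which were called lower here. It cites *Klf13* and *Bax* from earlier work and lists *Casp2* among its primers. *Bcl2l11*, which encodes BIM, had 46.8 ± 0.960 CPM in MC and 37.6 ± 1.42 CPM with miR-125b (log2 fold change -0.32), below the fold threshold though without overlap. *Hif1an*, the asparagine hydroxylase of HIF, had -0.12 (adjusted p 0.202) and *Dram2* -0.07 (adjusted p 0.473), with overlapping libraries in both. *Klf13* had -0.56 (SE 0.178), short of the fold threshold but called when any of 4 libraries was left out, at -0.59 to -0.65. *Casp2* stood at -0.32 and *Bax* at 0.44, neither reaching 1.5-fold.

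**Figure D3:**
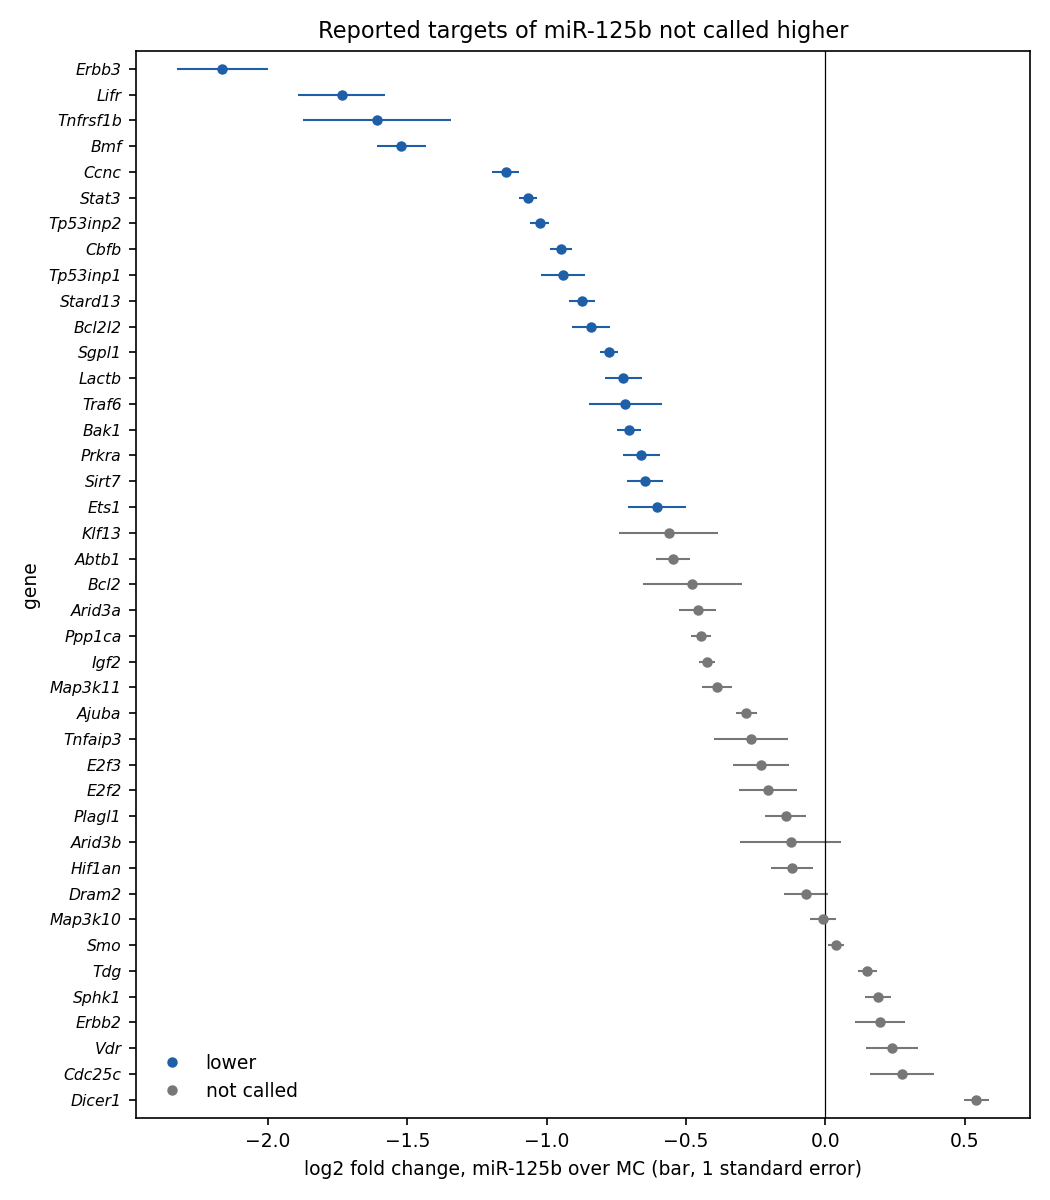
Log2 fold change, miR-125b over MC, of tested genes reported as targets of miR-125b and not called higher, with a bar of 1 standard error; blue was called lower and grey was not called. Values run from -2.16 for *Erbb3* to 0.54 for *Dicer1*, and 34 lie below 0.

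The microRNA machinery itself changed little. Of 29 tested genes for processing, silencing and trimming of microRNAs, 3 were down-regulated (10.3%, against 12.5% of all genes) and 0 up-regulated. Their median was -0.25. *Dis3l2*, an exonuclease that degrades tailed precursors, fell from 17.4 ± 0.0126 to 8.05 ± 0.633 CPM, *Prkra*, a partner of Dicer, fell by 0.66, and the helicase *Ddx5* fell by 0.59, a call lost without miR-125b library 1 (-0.58). *Drosha* stood at 73.3 ± 1.45 and 81.2 ± 2.19 CPM and *Ago1* at 10.7 ± 0.777 and 8.62 ± 0.950 CPM, neither reaching 1.5-fold.

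Apoptosis genes moved in both directions. Of 46 tested members of the BCL2 family, the caspases and the death receptors with their adaptors, 9 were down-regulated (19.6%) and 7 up-regulated (15.2%). Over all genes tested the shares were 12.5% and 9.43%, and the median of the 46 was -0.0025. Beside *Bak1* and *Bmf*, *Casp6*, an executioner caspase, fell from 3.73 ± 0.407 to 0.377 ± 0.0576 CPM (log2 fold change -3.29, adjusted p 2.82e-07). Rises included *Bok*, a pro-apoptotic relative of *Bak1*, which went from 38.8, 35.3 and 32.4 CPM to 87.9, 82.1 and 77.3 CPM. *Faslg*, the Fas ligand, rose from 1.47 ± 0.467 to 4.25 ± 0.318 CPM and *Birc5*, survivin, an inhibitor of apoptosis that also works in mitosis, from 7.91 ± 0.543 to 21.2 ± 1.38 CPM. *Bcl2* (-0.48) and *Tnfrsf1a* (-0.53, adjusted p 6.44e-07) did not reach 1.5-fold, and *Casp1* (-0.69, overlapping libraries) did not pass the test. Pro-apoptotic and pro-survival members stood on both sides.

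Known targets of the p53 pathway did not share a direction. Of 26 tested, 3 were up-regulated (11.5%) and 5 down-regulated (19.2%), against 9.43% and 12.5% of all genes. Over the 34 tested genes of the pathway the median was 0.08. *Sesn2*, a stress-induced sestrin, rose by 0.73 and *Phlda3*, an inhibitor of AKT, by 0.68. *Eda2r* fell by 1.28. *Cdkn1a*, which encodes p21, stood at 647 ± 21.7 and 780 ± 6.38 CPM, a log2 fold change of 0.27 without overlap.

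Genes of the hypoxic response were expressed in both groups and differed in part. Of 34 tested genes of HIF and oxygen sensing, 7 were down-regulated (20.6%) and 4 up-regulated (11.8%), against 12.5% and 9.43% of all genes. Their median was -0.22. *Hif1a* was level, at 130 ± 6.42 and 128 ± 0.821 CPM with overlapping libraries. Among targets of HIF, *Car9*, a carbonic anhydrase, fell from 36.7 ± 2.44 to 18.6 ± 1.46 CPM and *Ndrg1* from 9.38 ± 0.659 to 2.88 ± 0.415 CPM, whereas *Lox*, lysyl oxidase, rose from 405 ± 6.56 to 672 ± 25.2 CPM and *Stc2*, stanniocalcin, rose by 0.73. *Bhlhe41* rose by 0.68, a call lost without MC library 2 (0.50). Targets of HIF did not share a direction.

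Glycolysis differed little. Of 27 tested genes of glucose uptake, glycolysis and lactate, 3 were down-regulated (11.1%, against 12.5% of all genes) and 1 up-regulated. Their median was -0.16. *Slc2a1*, the glucose transporter GLUT, stood at 91.5 ± 2.64 and 91.6 ± 2.00 CPM, and *Ldha*, lactate dehydrogenase, at 1899 ± 70.0 and 1702 ± 42.3 CPM. *Pdk1* and *Pdk3*, kinases that close the entry of pyruvate into mitochondria, fell by 0.79 and 0.72, and *Pfkm*, the muscle phosphofructokinase, by 0.68. The rise, of the lactate exporter *Slc16a3* from 0.889 ± 0.289 to 1.52 ± 0.0362 CPM, was lost when any of 5 of the libraries was left out (0.59 to 0.79).

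Part of the angiogenic factors fell. Of 26 tested ligands and receptors, 9 were down-regulated (34.6%) and 2 up-regulated, with a median of -0.35. *Angptl4*, an angiopoietin-like protein that inhibits lipoprotein lipase, stood at 29.0, 26.9 and 27.2 CPM in MC and at 4.53, 5.19 and 4.29 CPM with miR-125b. *Figf*, which encodes VEGF-D, fell by 2.32 and *Angpt1*, angiopoietin, by 1.20. *Vegfa*, the main hypoxic ligand, was lower in all miR-125b libraries without reaching 1.5-fold, at 760 ± 16.5 and 616 ± 10.5 CPM. Its relatives *Vegfb* and *Pgf* rose by 0.87 and 0.77. The receptor *Flt1* fell by 0.65, which became -0.52 and was no longer called after removal of the length trend.

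The strongest rises above 100 CPM did not belong to a single pathway. *Lgmn*, the lysosomal protease legumain, stood at 43.5, 44.4 and 42.8 CPM in MC and at 144, 138 and 142 CPM with miR-125b (log2 fold change 1.70, SE 0.0351, adjusted p 9.49e-11). *Ankrd52*, a phosphatase subunit that has been linked to the Argonaute cycle, rose from 170 ± 5.56 to 453 ± 19.9 CPM, *Sfxn1*, the mitochondrial serine carrier, from 55.0 ± 1.94 to 142 ± 6.22 CPM, *Hspb6*, a small heat shock protein, from 45.1 ± 2.32 to 112 ± 5.20 CPM and *Ddit3* from 90.9 ± 3.39 to 219 ± 13.1 CPM. The 5 were picked among genes whose libraries do not overlap between the groups. The largest rises by fold among named protein-coding genes of at least 1 CPM without overlap between the groups were of scarce genes. *Ndufa1*, with a larger change of 4.37, had overlapping libraries and is described below. *Cd151*, a tetraspanin, had 9.34, 8.35 and 3.93 CPM with miR-125b against 0.0674 to 0.866 CPM in MC, and *Cngb1*, *Slc5a11*, *Misp*, *Chrna4*, *Cacna1d*, *Tert* and *Lrmp* reached means of 1.32 to 3.13 CPM with log2 fold changes of 3.01 to 3.52. Among these, *Misp*, a spindle-positioning protein, had 0.269 to 0.333 CPM in MC and 2.79 to 3.36 CPM with miR-125b.

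Genes of the unfolded protein response and the integrated stress response rose in part. These pathways sense misfolded protein in the endoplasmic reticulum (ER) or a lack of amino acids, slow translation and turn on *Atf4* and its targets. Of 41 tested genes, 14 were up-regulated (34.1%, against 9.43% of all genes) and 1 was down-regulated, with a median of 0.48. The ER arm gave 7 of 20 rises and the integrated stress arm 7 of 21. Below the fold threshold the same direction prevailed, since 31 of the 41 had an adjusted p below 0.05 and a positive change and 5 a negative one.

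*Ddit3*, which encodes the factor CHOP, stood at 93.6, 92.0 and 87.1 CPM in MC and at 234, 215 and 209 CPM with miR-125b (log2 fold change 1.27, SE 0.0463, adjusted p 3.62e-09). *Trib3*, a pseudokinase induced by CHOP, rose from 224 ± 7.88 to 487 ± 6.496 CPM and *Ern1*, the ER sensor IRE, from 33.6 ± 0.944 to 82.6 ± 2.72 CPM. *Hspa5*, the ER chaperone BiP, rose by 0.61 and *Canx*, calnexin, by 0.79. *Atf4* itself was higher in every miR-125b library, at 906 ± 18.5 against 637 ± 24.6 CPM, a log2 fold change of 0.51 that did not reach 1.5-fold. The fall was that of *Edem1*, an ER degradation factor (-0.62), and it was no longer called after removal of the length trend (-0.58).

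Amino acid transporters were split. Of 20 tested, 5 were up-regulated and 4 down-regulated. *Slc7a5*, the large neutral amino acid exchanger, went from 311, 316 and 307 CPM to 661, 666 and 713 CPM and *Slc6a9*, a glycine carrier, from 71.4 ± 0.0823 to 133 ± 3.83 CPM. *Slc7a3*, an arginine carrier near 1 CPM, rose by 1.44. The cystine exchanger *Slc7a11* fell from 61.4 ± 0.743 to 34.7 ± 1.78 CPM, *Slc43a2* by 1.05 and *Slc38a4* by 0.83. The median was 0.12, or 0.04 without miR-125b library 2.

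Antioxidant, heat shock and lipid genes stayed near the background. Of 27 tested genes of the NRF2 response 2 rose, *Gclc*, of glutathione synthesis, by 0.83 and *Hmox1*, haem oxygenase, by 0.67, and 2 fell, *Slc7a11* and *Gsta4* (-0.70, a call lost without MC library 2 at -0.50). Their regulator *Nfe2l2* stood at 292 ± 9.91 and 360 ± 5.23 CPM, and *Nqo1*, a quinone reductase, at 1265 ± 42.9 and 1096 ± 6.99 CPM. Of 26 heat shock chaperones 2 rose, *Hspb6* and *Hspa1l* (0.87), and 3 fell, *Hspb3*, *Hspb8* and *Hspb2*, by 3.51, 0.77 and 0.61. The small heat shock proteins therefore moved apart. Of 29 genes of cholesterol synthesis and uptake 3 rose and 5 fell, with a median of -0.10. Of 30 genes of fatty acid synthesis and oxidation 2 rose and 1 fell, with *Cpt1a*, the gate of mitochondrial oxidation, going from 106 ± 3.39 to 54.4 ± 1.19 CPM and *Acsl4*, an acyl-CoA ligase, from 49.0 ± 1.63 to 82.8 ± 0.629 CPM. The second rise, of *Cd36* near 1 CPM (0.91), was lost without any of 4 libraries (0.61 to 0.95).

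**Figure D4:**
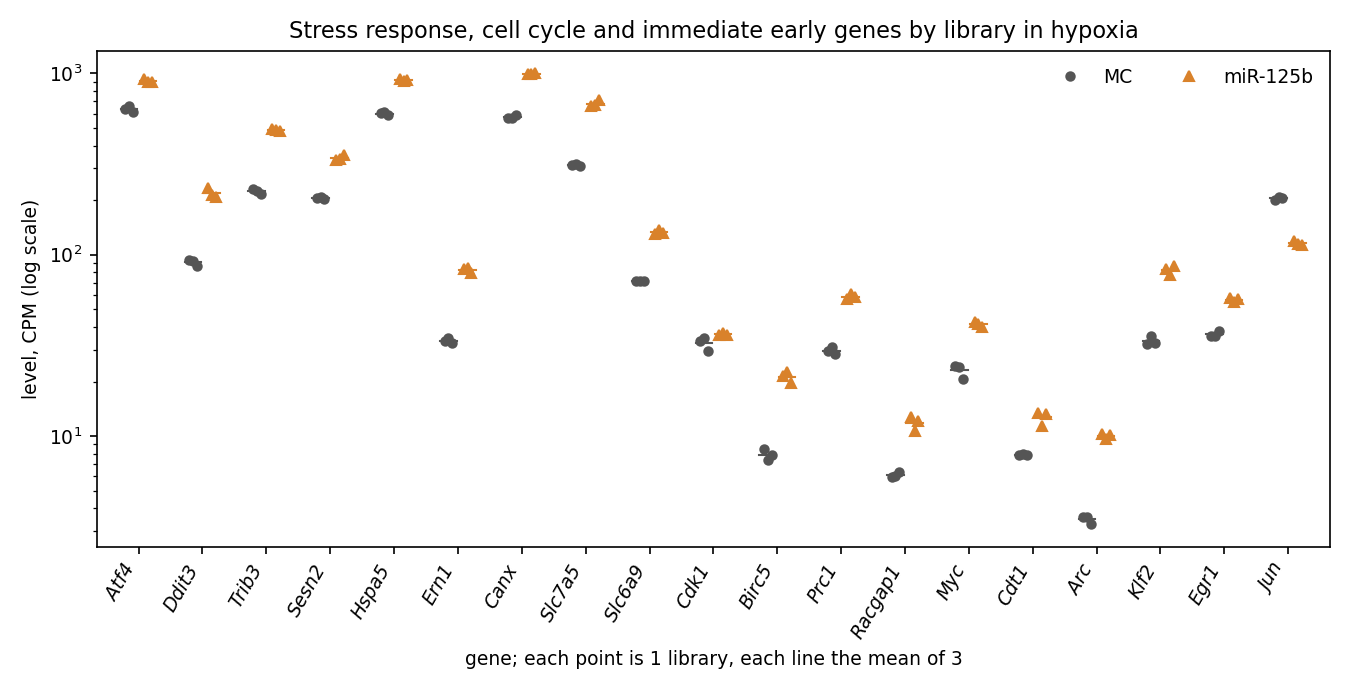
Levels of 19 genes of the stress response, amino acid transport, the cell cycle and the immediate early response (CPM, log scale) in each library, with MC as dark circles, miR-125b as orange triangles and a line for the mean of 3. All but *Jun* are higher with miR-125b, from 637 to 906 CPM for *Atf4* and from 7.91 to 21.2 CPM for *Birc5*, while *Atf4* and *Cdk1* did not reach 1.5-fold. The 19 genes are a selection that does not stand for the direction of their lists. Falls in the same lists, such as *Slc7a11*, *Edem1*, *Cdkn2b* and *Ier3*, are not shown. Of 20 amino acid transporters tested 5 rose and 4 fell.

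Part of the mitotic genes rose with miR-125b. Mitosis needs a spindle, kinetochores and a set of kinases, and their messages peak as cells divide. Of 38 tested genes, 11 were up-regulated (28.9%) and 0 down-regulated in edgeR's test, with a median of 0.35. At an adjusted p below 0.05 without the fold threshold, 24 were higher and 3 lower. *Birc5* rose by 1.42, *Prc1*, which bundles spindle microtubules, from 29.6 ± 1.37 to 58.8 ± 2.18 CPM and *Racgap1*, of the same midzone, from 6.08 ± 0.216 to 11.8 ± 1.10 CPM. *Cdk1*, the mitotic kinase, stood at 33.4, 34.7 and 29.3 CPM in MC and at 36.3, 36.9 and 36.2 CPM with miR-125b (log2 fold change 0.17). The checkpoint gene *Mad2l1* had 0.34.

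Other phases of the cell cycle did not share this direction. Of 36 tested genes of DNA replication 3 were up-regulated and 3 down-regulated, 8.33% each against 9.43% and 12.5% of all genes. Their median was 0.10. The rises were in origin licensing, with *Orc1* from 3.39 ± 0.191 to 6.47 ± 0.725 CPM, *Cdt1* by 0.68 and *Gins4* by 0.63, the last of them lost without MC library 2 or miR-125b library 1 (0.53 and 0.56). The falls were *Fen1*, a flap nuclease (-0.78), *Prim2*, a primase (-0.67), and *Tyms*, thymidylate synthase (-0.61), the last of them lost without MC library 1 or miR-125b library 3 (-0.53 and -0.57). *Pola1* and *Rrm1* were level at 0.04 and -0.11. Of 23 G1 cyclins, kinases and inhibitors 1 rose, *Myc*, from 23.1 ± 2.02 to 41.4 ± 1.26 CPM, and 2 fell, *Cdkn2b*, an inhibitor of the G1 kinases, from 112 ± 3.94 to 61.0 ± 2.70 CPM and *E2f8* by 1.24. *Ccnd1*, cyclin D, was at 401 ± 10.5 and 429 ± 4.004 CPM. Of 28 genes of homologous recombination and the Fanconi pathway 4 fell and 0 rose, with *Fancc* and *Brip1* both at -0.75, while *Brca1* had 0.13.

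Telomerase was among the largest rises by fold. *Tert*, its catalytic subunit, stood at 0.393, 0.333 and 0.168 CPM in MC and at 2.02, 2.74 and 3.11 CPM with miR-125b (log2 fold change 3.12, SE 0.311, adjusted p 6.82e-06). Levels were low in both groups, and the libraries did not overlap. Of the 15 tested genes of telomerase and telomeres, *Gar1*, of the telomerase RNA particle, also rose (0.79) and *Pot1*, a telomere-binding protein, fell (-0.69).

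Immediate early genes, which answer growth factors and stress within minutes, moved in both directions, more of them upward. Of 30 tested, 10 were up-regulated (33.3%) and 3 down-regulated, with a median of 0.35. *Arc* rose from 3.49 ± 0.192 to 10.0 ± 0.302 CPM, *Egr2* by 1.504, *Klf2* from 33.4 ± 1.91 to 82.4 ± 4.63 CPM and *Egr1* by 0.63. *Jun* moved down, from 200, 209 and 207 CPM to 119, 115 and 113 CPM, as did *Ier3* (-0.74) and *Ier5* (-0.64). *Fos* had 0.54 (SE 0.172), short of the fold threshold, and was called without miR-125b library 2 (0.66).

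Part of the interferon-stimulated genes fell. These genes respond to type I interferon and hold back viruses. Of 36 tested, 11 were down-regulated (30.6%, against 12.5%) and 2 up-regulated, with a median of -0.38. *Mx2*, a GTPase, fell from 3.15 ± 0.337 to 1.03 ± 0.456 CPM, *Parp14* from 22.0 ± 1.78 to 10.8 ± 0.411 CPM and *Lgals3bp*, a secreted lectin-binding protein, from 119 ± 2.48 to 59.0 ± 5.17 CPM. The sensor *Ddx58*, RIG-I, had -0.48 and *Mx1* was too scarce to test. *Isg20*, an exonuclease, went the other way, from 13.7, 14.5 and 13.4 CPM to 54.4, 47.8 and 47.6 CPM (log2 fold change 1.85). *Rtp4* rose by 0.85.

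Cytokines and their receptors fell in part, with 8 of 21 tested down-regulated (38.1%) and 1, *Il11*, up-regulated (0.88), and a median of -0.44. *Il33*, an alarmin, fell from 16.5, 15.9 and 16.0 CPM to 3.94, 3.91 and 4.98 CPM, and its receptor *Il1rl1* from 12.3, 10.3 and 11.8 CPM to 2.13, 2.51 and 3.05 CPM. Ligand and receptor thus fell by like amounts, 1.92 and 2.16 on the log2 scale. *Ccl2* stood near 1 CPM with overlapping libraries.

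In the NF-kB pathway the subunits and the regulators differed in direction. Of 5 subunits tested 3 rose, *Relb* by 0.81, *Nfkb2* from 61.3 ± 2.30 to 107 ± 2.86 CPM and *Rel* by 0.71, while *Rela* had 0.04 with overlapping libraries. Of 19 regulators 5 fell, among them *Ikbkg*, the scaffold of the kinase complex, from 23.2 ± 0.480 to 9.29 ± 0.747 CPM and *Ikbke* by 0.97. The 5 falls became 3 without MC library 3 or miR-125b library 2. *Nfkbia*, the inhibitor, had -0.21. Over the 24 genes tested the median was -0.18, or -0.07 without MC library 3.

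Of 18 tested genes of antigen presentation, 2 rose and 2 fell (11.1% each), near the 9.43% and 12.5% of all genes. *Tap1*, the peptide transporter, rose from 41.7 ± 2.02 to 73.9 ± 0.291 CPM with *Canx*, whereas *Tapbp*, which docks class I molecules to that transporter, fell from 39.9 ± 0.939 to 24.4 ± 0.552 CPM and *RT1-N3*, a class I gene of a family of near copies whose counts are uncertain, fell by 1.15. *B2m* had 0.18. *Tap1* and *Tapbp*, partners in the same loading complex, thus moved apart.

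The extracellular matrix was rearranged more than shifted. Of 26 tested collagen chains 5 were up-regulated (19.2%) and 4 down-regulated (15.4%), against 9.43% and 12.5% of all genes. Their median was 0.16. After removal of the length trend, 8 were up-regulated. Fibrillar chains gave 3 rises of 9 and no fall. *Col1a1*, the main chain of fibrillar collagen, stood at 15118, 15971 and 16198 CPM in MC and at 26099, 26460 and 27305 CPM with miR-125b (log2 fold change 0.76, SE 0.0288, adjusted p 4.81e-09). *Col11a2* rose from 11.5 ± 0.421 to 36.0 ± 2.11 CPM, and *Col2a1* and *Col4a4* rose by 2.77 and 1.75 from below 1 CPM. *Col6a3*, *Col12a1* and *Col27a1* fell by 1.26, 1.15 and 1.11. *Col4a1*, of basement membranes, was at -0.19.

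Among other matrix genes, 11 of 38 tested fell and 5 rose, with a median of -0.24. The 5 rises became 3 when MC library 2, miR-125b library 1 or miR-125b library 3 was left out. *Postn* (ENSRNOG00000012660), periostin, a matricellular protein of repair and fibrosis, stood at 2961, 3068 and 3046 CPM in MC and at 733, 750 and 726 CPM with miR-125b. The fall of 2.04 on the log2 scale (SE 0.0272) had an adjusted p of 4.69e-12, the same as for *Tnnt2* and *Myog*. *Tnc*, tenascin, fell from 36.6 ± 1.72 to 10.8 ± 1.54 CPM, and the proteoglycans *Lum* and *Dcn* by 1.88 and 1.70. *Fn1*, fibronectin, went from 14979 ± 492 to 9966 ± 403 CPM. Its change of -0.59 lay at the fold threshold and was no longer called without MC library 3 or miR-125b library 1 (-0.56 in both) or after removal of the length trend (-0.43). *Fmod*, another proteoglycan, rose from 2.84 ± 0.287 to 9.87 ± 0.556 CPM.

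Part of the enzymes that cut the matrix fell. Of 23 tested metalloproteinases and inhibitors, 7 were down-regulated and 0 up-regulated, with a median of -0.34. *Adamts4*, an aggrecanase, fell from 44.4 ± 2.18 to 12.4 ± 0.394 CPM and *Mmp2*, a gelatinase, from 27.6 ± 1.83 to 11.7 ± 1.08 CPM. *Timp1*, an inhibitor, had -0.10 (adjusted p 0.0921).

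Receptors of the matrix fell in part. Of 16 tested integrins 8 fell and 2 rose, with a median of -0.67, whereas of 10 laminin genes 1 fell and 2 rose. *Itga7*, the laminin-binding integrin of muscle, stood at 130, 130 and 136 CPM in MC and at 34.5, 33.2 and 31.5 CPM with miR-125b (log2 fold change -2.00, SE 0.0420, adjusted p 9.49e-11). *Itga6* fell by 1.84 and *Itga4* by 1.30, while *Itga8* and *Itgb4* rose by 0.73 and 0.69. *Itga1* overlapped between the groups (-0.08). *Lamc1*, a laminin chain, rose by 0.60, a call lost without MC library 1 (0.57).

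Genes of TGF-beta, BMP, Notch and Wnt signalling were called at shares near those of all genes, 12.5% down-regulated and 9.43% up-regulated. Of 40 tested genes of TGF-beta and BMP signalling 6 fell (15%) and 3 rose (7.5%). Their median was -0.09, or -0.17 without miR-125b library 3. *Tgfbr2*, the ligand-binding receptor, fell from 68.8 ± 4.93 to 30.0 ± 2.00 CPM and *Bmp1*, a procollagen protease, by 0.91, whereas the co-receptor *Tgfbr3* rose from 27.0 ± 1.25 to 50.4 ± 3.11 CPM. *Tgfb1* and *Tgfbr1* were level at 0.01 and -0.03. Of 38 genes of the Notch and Wnt pathways 6 fell (15.8%) and 3 rose (7.9%). Without MC library 2, 1 rise was called, and in the fit of all hypoxia libraries the 6 falls became 3. The Notch ligand *Dll1* fell from 6.74 ± 1.45 to 2.25 ± 0.273 CPM and *Lfng*, which glycosylates Notch, from 112 ± 3.28 to 47.7 ± 2.15 CPM. *Notch4* rose by 0.86 and *Notch1* had -0.03.

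In the IGF axis, which drives growth and differentiation of myoblasts, 5 of 16 tested genes fell and 1 rose, with a median of -0.31 that was -0.19 after removal of the length trend. *Igfbp5*, a binding protein of differentiating muscle, stood at 350.5, 347 and 362 CPM in MC and at 119, 125.5 and 129 CPM with miR-125b. Its fall of 1.51 had an SE of 0.0365 and no overlap. *Igf2bp2*, an RNA-binding protein of myoblasts, fell by 1.13, and *Igfbp2* rose from 0.917 ± 0.344 to 3.71 ± 0.445 CPM. Of 9 imprinted genes of growth 3 fell, *Peg3* by 0.79 beside *Dcn* and *Slc38a4*.

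Genes of caveolae and of the YAP pathway gave 7 falls and 1 rise of 22 tested, with a median of -0.11. *Ankrd1*, a target of YAP and a muscle stress protein, fell from 1597, 1581 and 1548 CPM to 696, 694 and 711 CPM. *Murc*, the muscle cavin, fell by 1.86 and *Sdpr*, another cavin, by 1.10, while *Cav1* had -0.06 and *Cav2* rose by 1.00. *Yap1* itself was at -0.18. Of 12 intermediate filament genes 3 fell and 1 rose, with *Nefh*, a neurofilament, falling by 1.18 and *Lmnb2*, a lamin, by 0.65.

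The degradation pathways differed from each other. Of 33 genes of autophagy and mitophagy 7 fell (21.2%) and 1 rose (3.03%), against 12.5% and 9.43% of all genes. Their median was -0.13. *Ulk2* fell from 60.7 ± 1.74 to 33.1 ± 0.749 CPM beside *Tp53inp1* and *Tp53inp2*, while *Ulk1*, its relative, had -0.46 and *Pink1* 0.01. Of 34 lysosomal genes 6 fell (17.65%) and 1 rose (2.94%). *Gusb*, β-glucuronidase, went from 103, 100.4 and 101 CPM to 31.6, 35.1 and 38.3 CPM, and *Glb1* and *Neu1* fell by 1.09 and 1.06. *Lamp1*, of the lysosomal membrane, was level at 841 ± 7.65 and 852 ± 9.46 CPM. Of 32 proteasome genes, 0 were called in either direction by edgeR or DESeq2, although 23 had an adjusted p below 0.05.

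Mitochondrial and ribosomal genes changed by small and mostly positive amounts. Of 55 tested genes of the respiratory chain 45 lay above 0, with a median of 0.21, and 31 had an adjusted p below 0.05 in that direction, but 1 reached 1.5-fold. That gene was *Ndufa1*, which had 15.1, 8.15 and 0.328 CPM with miR-125b and 0.328 to 0.433 CPM in MC, so that 1 of its miR-125b libraries stood with the controls. *Sdha* (0.22), *Uqcrc1* (0.27), *Cox4i1* (0.21) and *Atp5a1* (0.20) had small changes without overlap, whereas *Mt-nd1*, of the mitochondrial genome, was at 1528 ± 58.5 and 1548 ± 62.9 CPM. Of 72 cytosolic ribosomal protein genes 2 fell and 0 rose, with a median of 0.17, and of 73 mitochondrial ones 1 fell and 0 rose, with a median of 0.09. The falls of *Rpl7a* and *Rps19* rest on uneven libraries. *Rpl7a* had 158, 46.7 and 151 CPM in MC, and *Rps19* was no longer called without MC library 2 or miR-125b library 3 (-0.57 in both). Ribosomal protein genes have many near copies, so that these counts are uncertain.

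**Figure D5:**
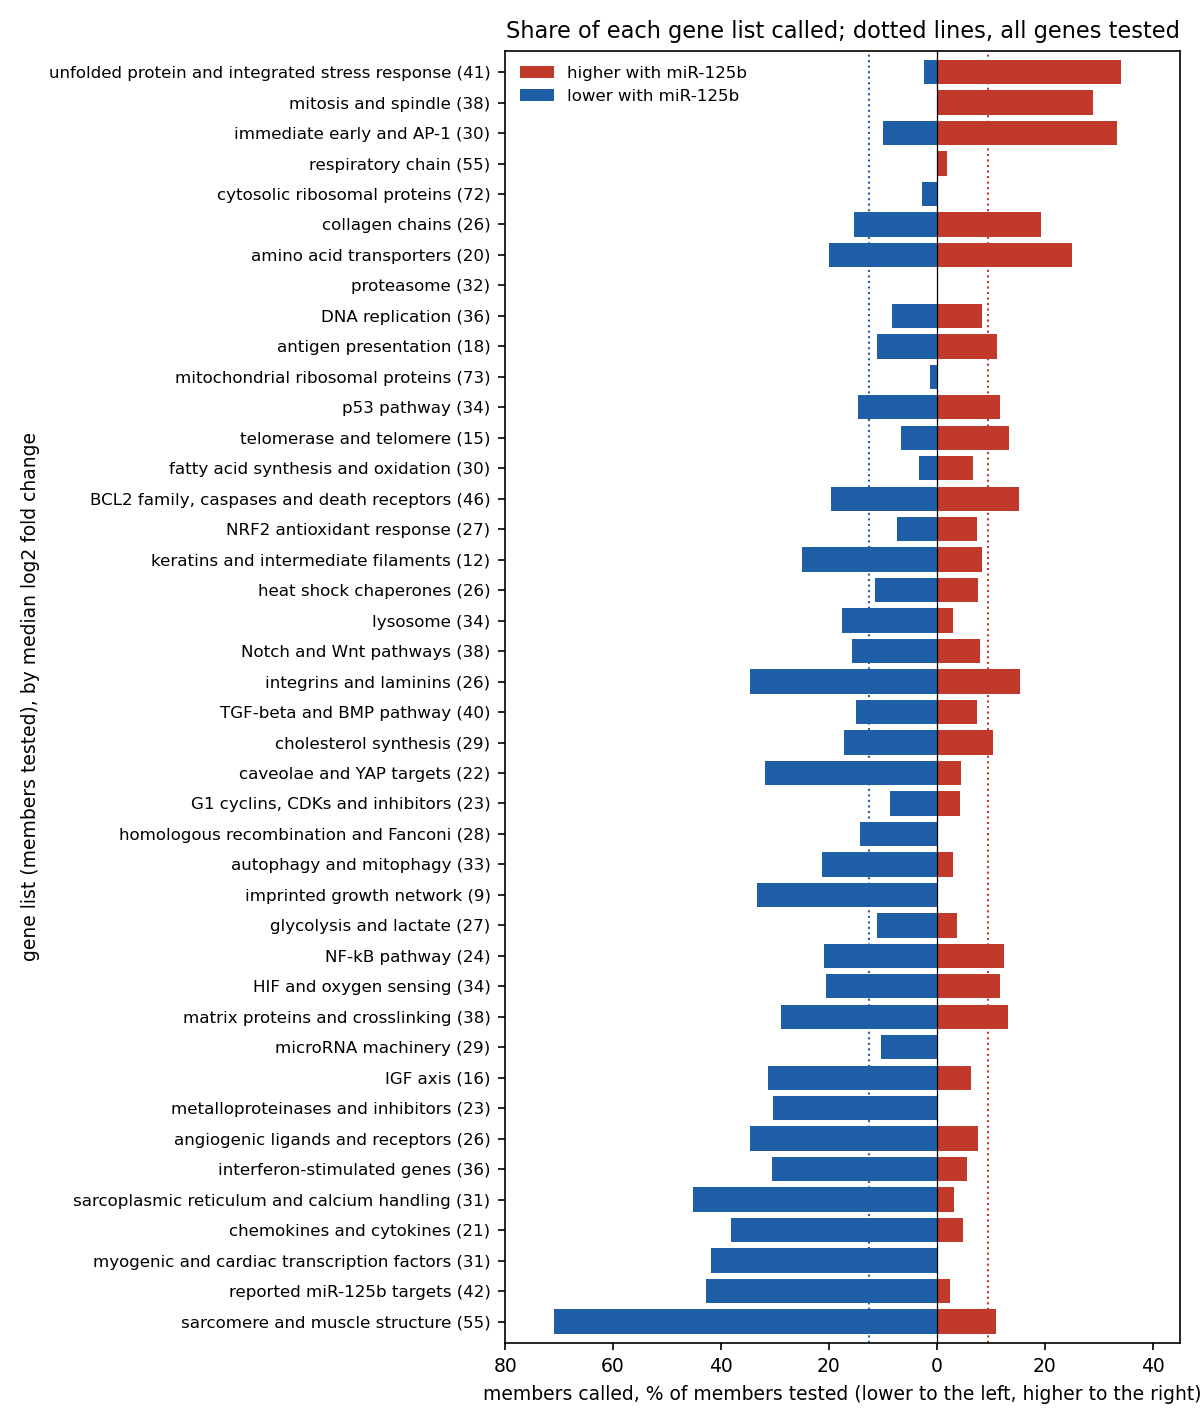
Share of each gene list, markers of other cell types left out, called higher (red, to the right) or lower (blue, to the left) with miR-125b, as a percentage of the members tested, with the number tested in brackets and lists ordered by their median log2 fold change; dotted lines mark the shares of all genes tested, 9.43% and 12.5%. The sarcomere list extends furthest to the left at 70.9%, and the stress response, immediate early and mitosis lists furthest to the right at 34.1%, 33.3% and 28.9%.

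By gene class, called genes were spread over the annotation of the deposited tables. Of 13115 tested protein-coding genes 1183 rose (9.02%) and 1586 fell (12.1%), close to the shares of all genes. Long intergenic non-coding RNAs were called more often, with 40 of 258 rising and 44 falling, as were loci without a name, with 154 and 197 of 1140. Calls were also more frequent among scarce genes, with 16.8% rising and 14.6% falling in the lowest of 5 equal groups by mean CPM and 6.14% and 7.20% in the highest, and the part of this in the shares by class was not tested. Of 130 small nucleolar RNAs 13 rose and 3 fell, and of 74 microRNA genes 5 rose and 14 fell. In poly-A libraries such counts come from host transcripts and precursors and do not measure the mature small RNA. Gene length moved with the changes. The median log2 fold change went from 0.08 in the shortest of 5 equal groups of genes to -0.10 in the longest, and the share down-regulated from 10.0% to 16.2%.

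By protein family, as the tables annotate it, immunoglobulin I-set proteins, which include titin-like and adhesion proteins, had 16 of 48 tested genes down-regulated and 6 up-regulated. Higher shares fell among thrombospondin type 1 proteins, with 12 of 25 down-regulated and 1 up-regulated, tetraspanins, with 10 of 24 and 2, and trypsin-like proteases, with 14 of 36 and 9. Cadherins had 14 of 50 down-regulated and 1 up-regulated, and basic helix-loop-helix factors 11 of 46 and 2. Kinases, the largest family with 286 genes, had 39 and 26, near the shares of all genes. Rhodopsin-like receptors had 16 of 71 up-regulated and 13 down-regulated. WD40 proteins and DEAD-box helicases were called seldom, with 4 of 72 and 2 of 46 down-regulated and 1 of each up-regulated.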

How the data were processed

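Poly-A RNA of H9C2 cells was sequenced from non-stranded libraries. The authors deposited raw read counts per gene for each library, with FPKM values, normalised values, group means and their own fold changes and p-values. Only the deposited counts were tested. The FPKM values, which the authors derived from counts and gene length, were kept as a per-length level and are not printed. The authors' comparison columns were not used. The submitters' processing notes name HISAT2 and StringTie. Their versions and the genome build are not given in the sources used here. A pair of tables was joined on gene identifier, and a gene absent from one (635 and 686 genes) was given 0 counts there. Its highest count elsewhere was 1.

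The 21954 genes were filtered with filterByExpr, normalised by TMM and tested with edgeR 4.0.16 (R 4.3.3) in the quasi-likelihood model over the 6 libraries, with Benjamini-Hochberg adjustment over 15143 genes. A call needed an adjusted p below 0.05 and 1.5-fold. Tables and figures were made with Python 3.11.15, pandas 2.3.3 and matplotlib 3.10.9. On simulated counts for this comparison (15143 genes, 10 simulations, 200 changed genes), 82.1% of 2-fold and 98.3% of 4-fold changes were recovered, and 6.31% of calls were false. The 200 were drawn from genes above a floor of mean count and are far fewer than the genes called here. These rates therefore do not extend to scarce genes or to the share of false calls in the data. Alternatives were DESeq2 1.42.0, RLE scaling, no filter, all 18 hypoxia libraries in 1 fit, a replicate block, removal of the gene-length trend (lowess, span 0.3), other fold thresholds and each library left out.

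The members and the 46 gene lists (1595 entries, 1362 tested) were chosen with earlier results of these data known. Named genes are those the study names, per direction the 8 largest changes among named protein-coding genes of at least 1 CPM without overlap and the 5 largest at 100 CPM, and up to 3 called genes per list and direction with the gene written at the head of each role. Reads of overlapping genes, antisense genes and near-identical copies cannot be told apart in non-stranded libraries, and 29 listed symbols have several identifiers. Some genes are not reported here.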

Additional observations from a re-analysis of the deposited data

How the results depend on the processing

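Among the settings tried here, the counts of called genes moved with the fold threshold and little otherwise. At 2-fold, 592 genes were higher and 851 lower with miR-125b, and with no fold threshold 4468 and 4540. Counts of higher and lower genes were 1340 and 1813 with DESeq2, 1439 and 1879 with RLE scaling, 1611 and 2059 without the filter, 1255 and 1572 with all 18 hypoxia libraries, and 1476 and 1856 after removal of the length trend. The study, with DESeq2, reports far fewer genes in each direction for this comparison at 1.5-fold and an adjusted p below 0.05. The source of that difference was not tested. Leaving out each library in turn here gave 1369 to 1455 higher and 1862 to 1929 lower genes. With the replicate number as a block the counts were 1396 and 1880. Deviations of same-numbered libraries correlated at 0.0714, -0.0489 and -0.0341, so the numbers did not pair the libraries. For named genes that were called, 2320 alternatives kept the call and 68 lost it, and 0 changed the sign. For named genes that were not called, 808 stayed uncalled and 8 gained a call, and 19 alternatives of 9 such genes, all without a call, changed the sign. Of the counts over lists 215 of the alternatives moved by more than 1.5 times and 1073 did not, mostly in lists with few called genes and under the changed fold thresholds. The cause of these moves was not tested. With 29091237 to 30994348 counts per library, genes near 1 CPM rest on few reads.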

Other observations

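The gene groups below were chosen after their values were seen. The actin isoforms, whose near-identical coding sequences make their counts uncertain, did not share a direction. *Actg1*, a cytoplasmic actin, went from 1007 ± 28.4 to 2148 ± 59.4 CPM (log2 fold change 1.09) and *Actg2*, of enteric smooth muscle, from 757 ± 36.6 to 1644 ± 11.5 CPM (1.12). *Actb* stood at 5318 ± 134 and 3752 ± 66.3 CPM (-0.50) and did not reach 1.5-fold.

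Cytosolic aminoacyl-tRNA synthetases, which load amino acids onto transfer RNAs, were higher. Of 20 tested, 7 were called higher and 0 lower in edgeR's test, 18 lay above 0 and the median was 0.43. *Iars*, the isoleucine enzyme, went from 102 ± 4.73 to 230.2 ± 4.15 CPM, and *Wars*, the tryptophan enzyme, was lowest at -0.37.

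In the dystrophin-glycoprotein complex, which ties the muscle cytoskeleton to the matrix, 5 of 15 tested genes fell and 0 rose. *Sgcb*, a sarcoglycan, went from 104, 103 and 102 CPM to 21.0, 23.8 and 24.3 CPM and *Sspn*, sarcospan, fell by 3.83. *Dmd*, dystrophin, had -0.34 and *Dag1*, dystroglycan, -0.27. Of 18 genes of the protocadherin beta cluster, adhesion proteins with closely related sequences, 7 fell and 0 rose, with a median of -0.49.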
